A study of Rattus norvegicus with 15 samples.

Results

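Neurotrophins and the ligands of the glial cell line-derived neurotrophic factor (GDNF) family are secreted proteins that keep neurons alive and adjust their synapses. Each neurotrophin binds a Trk receptor tyrosine kinase and, with the receptor p75, a second receptor type that can signal alone or modify Trk signalling. GDNF family ligands bind a GFRα co-receptor anchored in the membrane, and the complex then engages the kinase RET. In the accumbens, signalling through TrkB and through GDNF has been studied for its part in cocaine seeking after abstinence.

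The set held 8 genes of 14497 measured, chosen by name. It comprised 3 neurotrophin receptors (Ntrk2, which encodes TrkB, Ntrk3, which encodes TrkC, and Ngfr, which encodes p75), the neurotrophin ligand Ntf4, the ligand Gdnf, its co-receptors Gfra1 and Gfra2, and the kinase Ret. Each was measured by 1 probe set, a group of probes whose signals are summarised as 1 value. Values are log2 intensities, so a difference of 1 is a doubling. Levels of different genes were not compared, because probe sets differ in their response. The single Ntrk2 value cannot separate the full-length kinase from its truncated forms.

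The tissue was the nucleus accumbens, a ventral striatal region, of male Sprague-Dawley rats weighing 250 to 350 g, with 15 arrays in 5 groups of 3. Saline rats (Sal) self-administered saline for 6 hours a day over 10 days, with the same light cue listed as for the cocaine groups. The cocaine groups self-administered cocaine at 0.75 mg/kg per infusion for 6 hours a day over 10 days, each infusion paired with a light cue. They then underwent forced abstinence of 1 day (1W) or 30 days (30W), or the same abstinence followed by an extinction test of cue-induced seeking (1C and 30C). Catheter surgery was described for the rats without distinction of group. Withdrawal time, a test, age and the number of rats per array are not given for Sal in the labels, and age and rats per array are not given for the other groups. P-values therefore measure only the spread between these samples.

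The tissue label was checked against its markers. All 12 matched markers of medium spiny neurons, the principal cells of the striatum, passed the filter on low values, among them Ppp1r1b at a mean of 12.21 and Drd2 at 11.63. Markers of cortical projection neurons were also measured, with 8 of 8 matched genes past the filter. The cortical score, the mean deviation of these genes on an array, was lowest on Sal replicate 1 (-1.41) and highest on 30C replicate 1 (1.07). Because the RNA came from whole tissue, fewer cells of a type and less RNA per cell cannot be told apart. All 8 genes of the set passed the filter, which kept a gene if 3 or more arrays had it above their 30th percentile. Of these, 7 were above it on all 15 arrays and Ntf4 on 11.

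Between the 5 groups, no member of the set passed the threshold of 0.05 in limma after adjustment over the 11778 genes tested. In the 8 comparisons of 2 groups 0 of 8 members passed, where the share of all genes past the threshold was 0%. This does not show that levels were alike in all members. Over these comparisons the confidence intervals of the change were widest for Ngfr, from 0.568-fold to 2.06-fold. They were narrowest for Ntrk2, from 0.907-fold to 1.11-fold. At an unadjusted p under 0.05, 2 members were higher in 30C against 1C (Ngfr and Ntf4), where 2.41% of all genes were higher and 5.48% either way, and 1 was higher in 30C against 30W (Ngfr), where 2.11% were higher and 3.93% either way. In the other 6 comparisons 0 members reached it, against 4.87% of all genes in 1W against Sal, 3.43% in 1C against Sal, 7.6% in 30W against Sal, 5.06% in 30C against Sal, 4.02% in 1C against 1W and 10.1% in 30W against 1W. A moderated F test over the 5 groups gave unadjusted p-values from 0.0719 for Ntf4 to 0.761 for Ntrk3, with 0 of 8 members under 0.05, where 6.96% of all genes were. The smallest adjusted p over the set in that test was 0.714, in limma.

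**Figure D1:**
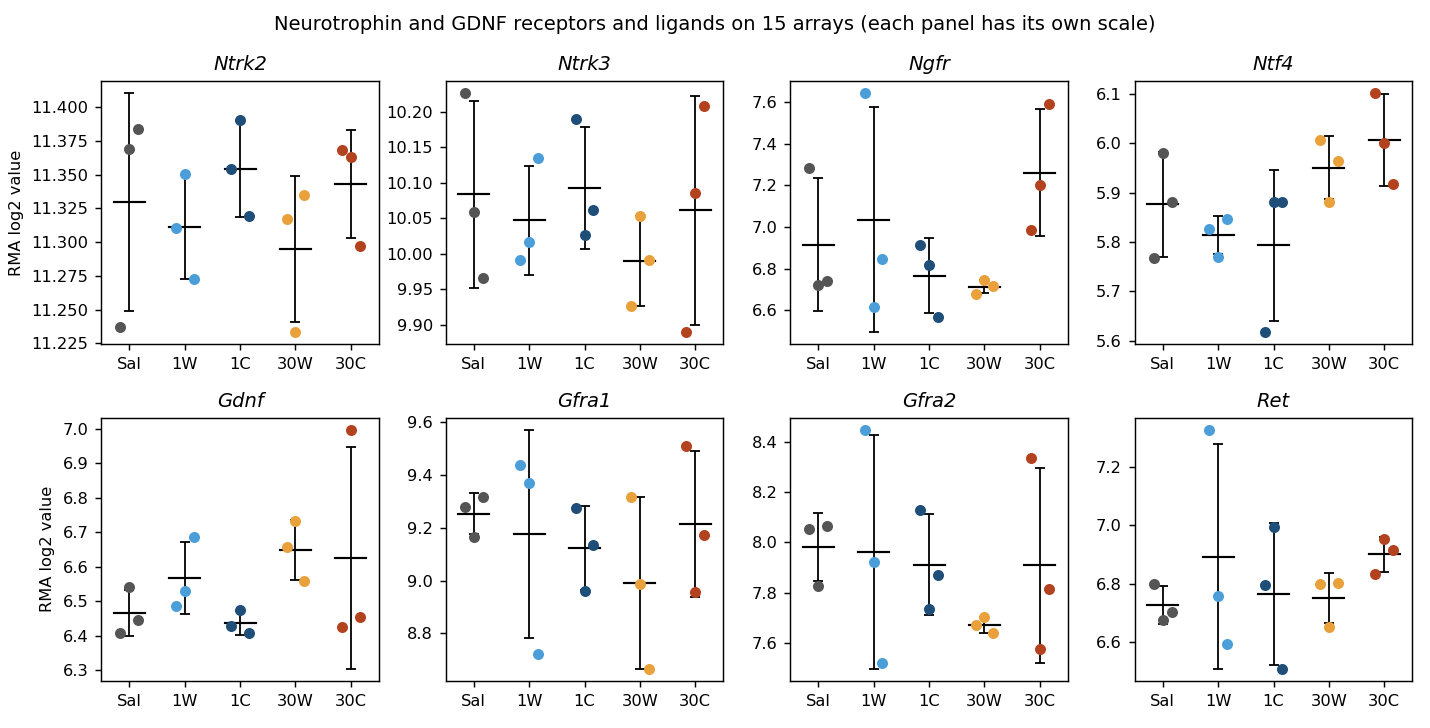
RMA log2 value (y axis, a separate scale per gene) of the 8 genes in the 5 groups (x axis); points are single arrays, and bars give the mean ± SD of 3 arrays. Ngfr in 30C lay above all 30W and 1C arrays, while most other groups overlapped.

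Ntrk2 encodes TrkB, the receptor of the brain-derived neurotrophic factor BDNF and of neurotrophin-4. It was at 11.24, 11.37 and 11.38 in Sal, 11.31, 11.35 and 11.27 in 1W, and 11.35, 11.39 and 11.32 in 1C. In 30W it was at 11.32, 11.23 and 11.33, and in 30C at 11.37, 11.36 and 11.30. All groups overlapped, and the whole range over 15 arrays was 0.16 on the log2 scale, or 1.11-fold (from 11.23 in 30W replicate 2 to 11.39 in 1C replicate 2). The order of the group means was 1C, 30C, Sal, 1W and 30W, and each neighbouring pair differed by less than the larger SD of both groups. Over the 8 comparisons the 95% intervals of the change lay between -0.14 and 0.15, that is between 0.907-fold and 1.11-fold. For the Ntrk2 value, which does not separate full-length from truncated forms, the differences in these 8 comparisons were therefore bounded more tightly than for the other 7 genes. Other pairs of groups were not compared.

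Ntrk3 encodes TrkC, the receptor of neurotrophin-3. Its values were 10.23, 10.06 and 9.97 in Sal, 9.99, 10.02 and 10.13 in 1W, and 10.19, 10.03 and 10.06 in 1C. They were 9.93, 10.05 and 9.99 in 30W and 9.89, 10.09 and 10.21 in 30C. The range was 0.26 inside Sal and 0.32 inside 30C, against 0.34 over all 15 arrays. Group means were ordered 1C, Sal, 30C, 1W and 30W, with neighbours apart by at most 0.06. The changes over the 8 comparisons ranged from -0.09 to 0.07, with the smallest unadjusted p at 0.284 (adjusted p = 0.869 in limma).

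Within the groups, Ntrk3 fell as the cortical score rose. The slope was -0.14 log2 units per unit of score (SE 0.02, adjusted p = 0.00223, limma over all genes with the groups in the model). In that fit 5.34% of all genes passed, 1.53% with a negative slope. Ntrk3 was lowest on 30C replicate 1, the array with the highest score, and highest on Sal replicate 1, the array with the lowest. Leaving out Sal replicate 1 gave a slope of -0.19 (adjusted p = 0.00403), and leaving out 30C replicate 1 gave -0.13 (adjusted p = 0.0228). These left-out fits were chosen after the data were seen.

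Of the other 7 members 0 passed on the cortical score. Ntrk2 had a slope of the opposite sign, 0.06 (SE 0.02, adjusted p = 0.182), Ntf4 one of 0.09 (SE 0.03, adjusted p = 0.158) and Ngfr one of -0.23 (SE 0.11, adjusted p = 0.272), each from limma. On the oligodendrocyte score 0 of 8 members passed, against 0% of all genes, and on the meningeal fibroblast score 0 of 8, against 0.034%. Ntrk2 and Ntrk3 ran against each other within groups, with a Pearson r of -0.73 over the 15 arrays after removal of group means. This is a description of 1 of 28 pairs and carries no test.

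Ngfr encodes p75, which binds all neurotrophins and is a known marker of cholinergic neurons of the basal forebrain. It was at 6.99, 7.20 and 7.59 in 30C, and at 6.68, 6.74 and 6.72 in 30W. In 1C it was at 6.92, 6.82 and 6.57, in 1W at 7.64, 6.61 and 6.84, and in Sal at 7.28, 6.72 and 6.74. Every 30C array lay above every 30W and every 1C array, but 1W replicate 1 was the highest of all 15 and Sal replicate 1 lay above 2 of the 3 30C arrays.

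The mean of Ngfr was 7.26 ± 0.31 (SD, n = 3) in 30C against 6.71 ± 0.03 (SD, n = 3) in 30W, a log2 change of 0.55 (SE 0.23, 95% interval 0.05 to 1.04), or 1.46-fold. The unadjusted p was 0.0325 and the adjusted p 0.999 in limma. Against 1C the change was 0.49 (SE 0.23, unadjusted p = 0.0498, adjusted p = 0.899 in limma). Against Sal it was 0.35 (SE 0.23, unadjusted p = 0.156 in limma). At 1 day the test went with a change of -0.27 (SE 0.23), which was 0.04 (unadjusted p = 0.845 in limma) without 1W replicate 1. The interaction of test and withdrawal length was 0.82 (SE 0.32, unadjusted p = 0.0255, adjusted p = 0.999 in limma), the 1 member of 8 under 0.05, where 1.6% of all genes were higher and 3.03% were called either way. In this interaction 0 of 8 members and 0% of all genes passed after adjustment.

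Single arrays moved these values. Without 30C replicate 3 the change of Ngfr in 30C against 30W was 0.38 (unadjusted p = 0.143 in limma) and against 1C 0.33 (unadjusted p = 0.202 in limma), and without 1W replicate 1 the interaction was 0.51 (unadjusted p = 0.0597 in limma). Without 30C replicate 3 the interaction was 0.65 (unadjusted p = 0.07 in limma). The change in 30C against Sal was 0.18 (unadjusted p = 0.475) without 30C replicate 3 and 0.53 (unadjusted p = 0.0461) without Sal replicate 1, in limma. Several other single arrays also took the change in 30C against 30W or 1C past an unadjusted p of 0.05. Group means were ordered 30C, 1W, Sal, 1C and 30W, and all neighbouring groups overlapped.

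Cholinergic markers were set beside Ngfr, since p75 marks cholinergic neurons of the basal forebrain. Whether the cholinergic neurons of the accumbens carry p75 was not tested, and the score does not separate cholinergic neurons by region. Of 8 listed markers 6 were matched, all past the filter, and Chat was not among them. Their score was -0.30, 0.08 and 0.35 on 30C replicates 1, 2 and 3, in the same order as Ngfr on these arrays. It was 0.41 on 1W replicate 1 and 0.33 on Sal replicate 1, the arrays on which Ngfr stood highest in those groups. The score lay between -0.58 and 0.33 in Sal, -0.01 and 0.41 in 1W, -0.21 and 0.26 in 1C, -0.17 and 0.03 in 30W, and -0.30 and 0.35 in 30C, so all groups overlapped. Within groups the slope of Ngfr on this score was 0.84 (SE 0.21, adjusted p = 0.0505 in limma) and that of Ntrk3 0.31 (SE 0.08, adjusted p = 0.0509 in limma), both just outside the threshold, which 2.74% of all genes passed. Without Sal replicate 1 these adjusted p-values were 0.276 and 0.293, and without 1W replicate 1 they were 0.0117 and 0.00584, in limma. With the score as a covariate, an alternative chosen after the data were seen, the change of Ngfr in 30C against 30W was 0.44 (unadjusted p = 0.0152, adjusted p = 0.854 in limma). Under the same covariate the interaction was 0.53 (unadjusted p = 0.0394, adjusted p = 0.943 in limma), the change in 30C against Sal 0.20 and that in 30W against 1W -0.09, where it was -0.32 without the covariate. The cholinergic score was not independent of other scores. Its within-group Pearson r over the 15 arrays was -0.86 with the cortical, 0.79 with the astrocyte and 0.74 with the meningeal fibroblast score. It was 0.29 with the medium spiny neuron and 0.31 with the oligodendrocyte score. Ngfr had a slope of 4.13 (SE 0.92, adjusted p = 0.0849 in limma) on the astrocyte score, which spanned only -0.13 to 0.10 and which 0.34% of all genes passed. The unadjusted p of the Ngfr slope was 0.000699 on the astrocyte and 0.00141 on the cholinergic score, in limma. Which of these correlated scores Ngfr follows was not tested.

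**Figure D2:**
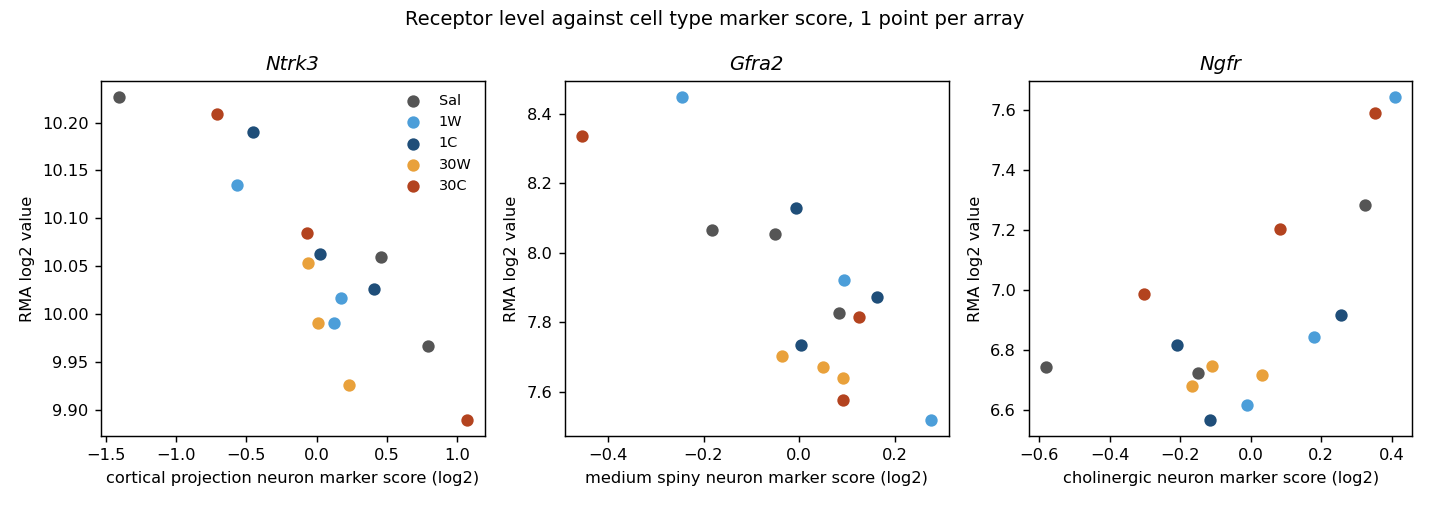
RMA log2 value of Ntrk3, Gfra2 and Ngfr (y axes) against the mean log2 deviation of cortical projection neuron, medium spiny neuron and cholinergic neuron markers (x axes); each point is 1 array, coloured by group. Ntrk3 and Gfra2 fell with their scores, from 10.23 to 9.89 and from 8.45 to 7.52 over all arrays, while the arrays highest in Ngfr and in the cholinergic score were the same (1W replicate 1).

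Ntf4 encodes neurotrophin-4, the second TrkB ligand. Its values were 6.10, 6.00 and 5.92 in 30C and 6.01, 5.88 and 5.96 in 30W. They were 5.62, 5.88 and 5.88 in 1C, 5.83, 5.77 and 5.85 in 1W, and 5.77, 5.98 and 5.88 in Sal. All 6 arrays at 30 days were at or above all 6 arrays at 1 day, with 30W replicate 2 level with 1C replicates 2 and 3. The Sal arrays overlapped both times, with replicate 1 below all 1W arrays, and the Sal mean lay between.

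Averaged over the test, Ntf4 was higher at 30 days than at 1 day by 0.18 (SE 0.05, 95% interval 0.06 to 0.29), or 1.13-fold, with an unadjusted p of 0.00647 and an adjusted p of 0.255 in limma. In this comparison of 6 arrays with 6, 0 of 8 members passed after adjustment, against 0.00849% of all genes (1 gene, Cd180, named after its value was seen). At an unadjusted p under 0.05, 1 member was higher and 0 were lower, while 5.54% of all genes were higher and 13% were called either way. For 30C against 1C the change of Ntf4 was 0.21 (SE 0.08, unadjusted p = 0.0153, adjusted p = 0.832 in limma), and for 30W against 1W 0.14 (SE 0.08, unadjusted p = 0.0987, adjusted p = 0.572 in limma). Group means were ordered 30C, 30W, Sal, 1W and 1C, with overlap between all neighbours. Without 1C replicate 1 the change in 30C against 1C was 0.13 (unadjusted p = 0.0973 in limma).

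Ntf4 lay near the filter, and the low end of the arrays differed between the same groups. The 30th percentile of an array was between 5.77 and 5.81 at 1 day and between 5.83 and 5.90 at 30 days, and between 5.80 and 5.84 in Sal. After a further quantile normalization, which makes the distributions of the arrays equal, Ntf4 differed by 0.11 (unadjusted p = 0.0716, adjusted p = 0.527 in limma) between 30 days and 1 day. Ntf4 took 12 distinct values on 15 arrays and was at 5.88 on 4 of them (Sal replicate 3, 30W replicate 2 and 1C replicates 2 and 3). Such repeated values occurred in 42.2% of all probe sets.

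**Figure D3:**
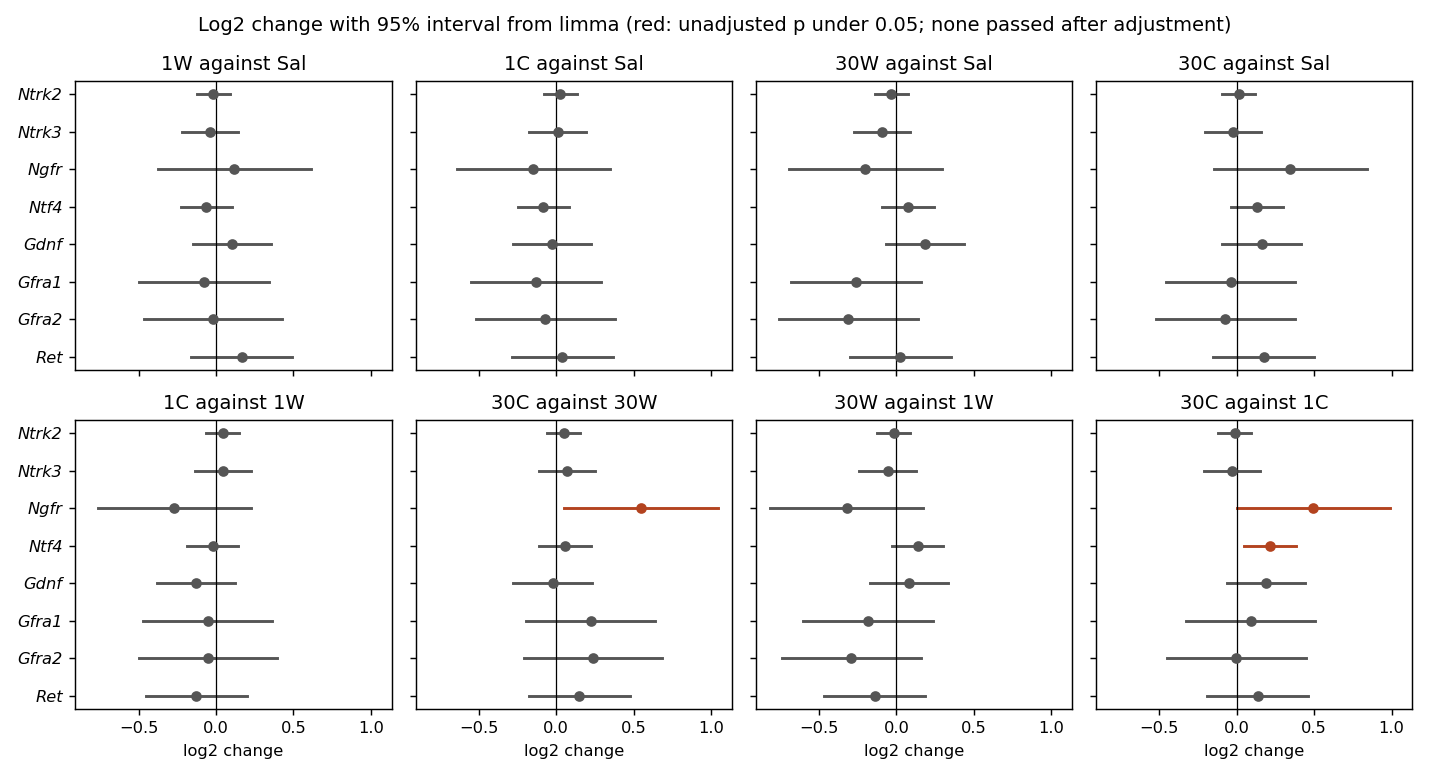
Log2 change (x axis) of the 8 genes in each comparison of 2 groups, with 95% intervals from limma over 15 arrays; red marks an unadjusted p under 0.05. The red intervals are those of Ngfr in 30C against 30W, and of Ngfr and Ntf4 in 30C against 1C, and the narrowest are those of Ntrk2.

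Gdnf encodes the founding ligand of its family. It was at 6.41, 6.54 and 6.45 in Sal, 6.49, 6.53 and 6.69 in 1W, and 6.43, 6.48 and 6.41 in 1C. In 30W it was at 6.66, 6.73 and 6.56. In 30C it was at 6.43 and 6.45 on replicates 1 and 3, while replicate 2 was at 7.0, the highest of all arrays. All 30W arrays lay above all Sal arrays, with a change of 0.18 (SE 0.12, unadjusted p = 0.14, adjusted p = 0.764 in limma). The mean of Gdnf, 6.55, was at the 43.5th percentile of all probe sets. After further quantile normalization the change was 0.15 (unadjusted p = 0.22, adjusted p = 0.854 in limma). Its unadjusted p was 0.0109 (adjusted p = 0.496 in limma) when 30C replicate 2 was left out.

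The values of Gdnf for 30C rested on that 1 array. Its change in 30C against Sal was 0.16 with it and -0.03 without it, and in 30C against 1C 0.19 and 0.00. In 30C against 30W it was -0.02 with it and -0.21 without it (unadjusted p = 0.00984, adjusted p = 0.883 in limma). Group means were ordered 30W, 30C, 1W, Sal and 1C, and neighbours overlapped.

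Gfra1 encodes the preferred co-receptor of GDNF, and Gfra2 that of the related ligand neurturin. Gfra1 was at 9.28, 9.17 and 9.32 in Sal, 9.44, 9.37 and 8.72 in 1W, and 9.27, 8.96 and 9.14 in 1C. It was at 9.32, 8.99 and 8.67 in 30W and 9.51, 8.96 and 9.17 in 30C. No pair of compared groups was apart, and the changes of Gfra1 ranged from -0.26 in 30W against Sal to 0.22 in 30C against 30W (smallest unadjusted p = 0.199). Without 30W replicate 3, the lowest array, these were -0.10 (unadjusted p = 0.627) and 0.06 (unadjusted p = 0.768), in limma. Gfra1 means were ordered Sal, 30C, 1W, 1C and 30W.

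Gfra2 was at 7.67, 7.70 and 7.64 in 30W, and at 8.05, 7.83 and 8.07 in Sal. It was at 8.45, 7.92 and 7.52 in 1W, 8.13, 7.74 and 7.87 in 1C, and 8.33, 7.58 and 7.81 in 30C. The 3 30W arrays lay below all Sal arrays, with a change of -0.31 (SE 0.21, 95% interval -0.76 to 0.14, unadjusted p = 0.158, adjusted p = 0.781 in limma). Its means were ordered Sal, 1W, 1C, 30C and 30W. The SD was 0.46 in 1W and 0.39 in 30C, with replicate 1 the highest in both, against 0.03 in 30W.

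Gfra2 fell within groups as the score of medium spiny neuron markers rose. The slope was -1.27 (SE 0.20, adjusted p = 0.00215 in limma), where 7.73% of all genes passed and 3.59% did so with a negative slope. The score was lowest on 30C replicate 1 (-0.45) and 1W replicate 1 (-0.24), where Gfra2 was at 8.33 and 8.45, and highest on 1W replicate 3 (0.28), where Gfra2 was at 7.52. Over 23 alternatives chosen after the data were seen, the slope stayed between -1.42 and -1.07, with an adjusted p of at most 0.033 in limma. Gfra1 had a slope of -0.89 (SE 0.29, adjusted p = 0.0882 in limma) on that score, and 0 of the 7 other members passed. The within-group Pearson r of this score was -0.52 with the oligodendrocyte and -0.51 with the cortical score. On the oligodendrocyte score the slope was 2.27 (SE 0.82, unadjusted p = 0.0165, adjusted p = 0.34 in limma) for Gfra2 and 1.88 (SE 0.81, adjusted p = 0.438 in limma) for Gfra1. Which of these scores Gfra2 follows was not tested. With the medium spiny neuron score as a covariate the change of Gfra2 in 30W against Sal was -0.20 (unadjusted p = 0.0778 in limma). The same covariate lowered the adjusted p of Gfra2 in 30W against 1W to 0.302, from 0.664 in the main fit, in limma. For 30 days against 1 day, averaged over the test, it was 0.221 with the covariate and 0.694 without it, in limma. Over the 15 arrays Gfra1 and Gfra2 had a Pearson r of 0.81 and a Spearman rho of 0.80, and an r of 0.80 without the 2 arrays farthest from the median of Gfra1. This pair had the highest r of the 28 among the members and is given with no test.

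Ret encodes the signalling kinase shared by all GFRα complexes. It was at 6.80, 6.68 and 6.70 in Sal, 7.33, 6.76 and 6.60 in 1W, and 6.80, 6.99 and 6.51 in 1C. It was at 6.80, 6.65 and 6.80 in 30W and 6.83, 6.95 and 6.91 in 30C. All 30C arrays were above all 30W and Sal arrays, by a mean of 0.15 (SE 0.15, unadjusted p = 0.345 in limma) and 0.17 (SE 0.15, unadjusted p = 0.273 in limma).

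Ret means were ordered 30C, 1W, 1C, 30W and Sal, with overlap between neighbours, and 1W replicate 1 was the highest array. Without that array the change of Ret in 1W against Sal went from 0.17 to -0.05. Ret and Ngfr ran together over the arrays (Pearson r = 0.74, Spearman rho = 0.61, and r = 0.52 without the 2 arrays farthest from the median of Ngfr), given with no test as the second highest of 28 pairs.

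Groups whose arrays did not overlap were counted over the set. In 30W against Sal they were 2 of 8 (Gdnf above, Gfra2 below), where 6.47% of all genes lay above, 7.19% below and 13.7% apart either way. In 30C against Sal it was 1 of 8 (Ret above), where 4.3% lay above and 8.41% apart. In 1C against 1W it was 1 of 8 (Gdnf below), where 4.3% lay below and 7.86% apart. In 30C against 30W they were 2 of 8 (Ngfr and Ret above), where 4.51% lay above and 8.38% apart. In 30W against 1W it was 1 of 8 (Ntf4 above), where 5.53% lay above and 16% apart. In 30C against 1C they were 2 of 8 (Ngfr and Ntf4 above), where 3.82% lay above and 9.69% apart. In 1W and 1C against Sal it was 0 of 8, against 8.09% and 7.18%. The comparisons share arrays and are not independent of each other.

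The direction of the set as a whole was mixed. After the extinction test at 30 days 7 of 8 members had a positive change, where 52.4% of all genes did, with a median of 0.11 against 0.00 over all genes. At 1 day 2 of 8 did, where 47.1% of all genes did, with a median of -0.05. The interaction was positive in 8 of 8 members, with a median of 0.19 against 0.01 over all genes, of which 54% were positive. That count did not hold when single arrays were left out: the interaction of Gdnf was -0.08 without 30C replicate 2 and that of Ntf4 -0.01 without 1C replicate 1, and the values of Ntrk2 and Ntrk3, both near 0, changed sign under 7 and 5 alternatives. Of these 8 interaction values 7 had an unadjusted p of 0.221 or more, from 0.00 (SE 0.07) for Ntrk2 to 0.29 (SE 0.29) for Gfra2. For cocaine groups averaged against Sal 4 of 8 were positive, where 50.7% of all genes were, 0 had an unadjusted p under 0.05 (4.33% of all genes did), and the largest size was that of Gfra1, -0.13 (SE 0.15).

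For each member the 3 genes with the highest Pearson r over the 15 arrays, of 11777 others tested, were listed as a description. Ntrk3 was most like Isl1 (r = 0.92), a transcription factor gene of striatal cholinergic and spiny neurons that is also on the cholinergic marker list. Ptprz1 and Fat1 followed, each with r = 0.88. Gfra2 was most like Wdr1 (r = 0.95), Podxl2 and Rab31 (both r = 0.92). Gfra1 was most like Mfap2 (r = 0.85) and Tuba1b (r = 0.82), followed by Gfra2. Ngfr was most like the glycine receptor gene Glra1 (r = 0.85), then Car3 and Dnm3 (both r = 0.81).

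Of the ligands, Gdnf was most like Trim29 (r = 0.91), Rtp3 and Foxe1 (both r = 0.88), and Ntf4 was most like Phlda2 (r = 0.86), Gfi1 (r = 0.82) and Lipt2 (r = 0.81). Ntrk2 was most like Dlat (r = 0.88), Aff1 (r = 0.86) and Ptpn1 (r = 0.85). Ret was most like Arhgap35 and Sod2 (both r = 0.83), then Tanc1 (r = 0.81).

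Around these 8 genes, 60 other genes of the pathways were listed in 7 groups, and 48 of them were tested. After adjustment 0 of the 48 passed in limma in any of the 8 comparisons of 2 groups, nor did any on average over the test or withdrawal length. At an unadjusted p under 0.05 the count was 9 in 30C against Sal (6 higher, 3 lower), or 18.8% of the 48 beside 5.06% of all genes tested, and 5 in 30C against 1C (1 higher, 4 lower), or 10.4% beside 5.48%. It was 4 in 30W against Sal (2 and 2), or 8.33% beside 7.6%, and 3 in 30C against 30W (all higher), or 6.25% beside 3.93%. It was 2 in 1C against Sal (1 and 1), or 4.17% beside 3.43%, 2 in 30W against 1W (1 and 1), or 4.17% beside 10.1%, 1 in 1C against 1W (higher), or 2.08% beside 4.02%, and 0 in 1W against Sal beside 4.87%. These shares were above those of all genes in 30C against Sal, 1C and 30W, and near or below them in the other comparisons. The comparisons share arrays, and the lists were chosen with earlier results of these data known. These shares therefore cannot show an enrichment of the pathways, and the excess was not tested.

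Among ligands, Bdnf, the main TrkB ligand of the brain, was at 6.02 ± 0.29 (SD, n = 3) in Sal, 5.91 ± 0.21 in 1W, 5.92 ± 0.12 in 1C, 6.02 ± 0.04 in 30W and 6.16 ± 0.28 in 30C. Its highest value was 6.48 on 30C replicate 1, and 5 of the 15 arrays held 1 identical value. Bdnf reached an unadjusted p under 0.05 in 0 of the 8 comparisons. It lay near the filter, with a mean of 6.005 and a lowest value of 5.67, where the 30th percentile of the arrays was between 5.77 and 5.90. The probe set therefore bears only weakly on whether Bdnf mRNA changed. Nrtn, which encodes neurturin, the ligand preferred by the Gfra2 product, was at 7.02 ± 0.20 (SD, n = 3) in 30W against 6.79 ± 0.07 in Sal, a change of 0.23 (SE 0.10, unadjusted p = 0.0307, adjusted p = 0.582 in limma). Without 30W replicate 1 it was 0.12 (unadjusted p = 0.185 in limma). Pspn, which encodes persephin, had a change of -0.17 (SE 0.07) in 1C against Sal (unadjusted p = 0.0242, adjusted p = 1 in limma), which was -0.11 (unadjusted p = 0.135) without 1C replicate 1 and -0.13 (unadjusted p = 0.106) without Sal replicate 3. Ntf3 was below the filter.

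Plat encodes tissue plasminogen activator, a protease that makes plasmin, which can cleave the BDNF precursor. It was at 9.17, 9.19 and 9.11 in 1C against 8.95, 8.81 and 8.79 in 1W, and at 9.20, 9.02 and 9.24 in 30C against 8.85, 8.76 and 8.92 in 30W. Both tested groups lay above their untested groups, and Sal was at 9.06, 8.72 and 8.74. The change was 0.30 (SE 0.09, unadjusted p = 0.00405, adjusted p = 1 in limma) at 1 day and 0.31 (SE 0.09, unadjusted p = 0.00344, adjusted p = 0.999 in limma) at 30 days.

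Averaged over withdrawal length Plat differed by 0.31 (SE 0.06, unadjusted p = 0.000241, adjusted p = 0.372 in limma), where 4.85% of all genes had an unadjusted p under 0.05. Its adjusted p ranged from 0.0865 to 0.896 over 28 alternatives. Of the 8 members of the set 0 had an unadjusted p under 0.05 in this averaged comparison. Spry4 and Etv5, genes induced by growth factor signalling through the MAP kinase pathway, had changes averaged over withdrawal length of 0.20 (SE 0.06, unadjusted p = 0.00614, adjusted p = 0.947 in limma) and 0.21 (SE 0.08, unadjusted p = 0.0166, adjusted p = 0.985 in limma). The rest of their list, the downstream target and feedback genes, did not reach an unadjusted p under 0.05 (smallest 0.0776 for Vgf, in limma). Changes were 0.18 for Dusp6, 0.12 for Vgf, 0.05 for Spred1, 0.04 for Etv1 and 0.03 for Spry1. They were negative for Spry2 (-0.02) and Etv4 (-0.04), so the list did not move as a whole.

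With withdrawal length, averaged over the test, 13% of all genes had an unadjusted p under 0.05 in limma, and 5.54% did so with a higher level at 30 days. Etv4, a transcription factor gene downstream of Ret in other tissues, differed by 0.12 (SE 0.04, unadjusted p = 0.00375, adjusted p = 0.25 in limma). Over 27 alternatives this difference lay between 0.08 and 0.14, with the largest unadjusted p (0.0296 in limma) after further quantile normalization. Etv4 was at 6.78 ± 0.07 (SD, n = 3) in 30W and 6.76 ± 0.03 in 30C, against 6.68 ± 0.02 in 1W, 6.61 ± 0.08 in 1C and 6.61 ± 0.04 in Sal. Plg, the plasminogen gene, differed by 0.17 (SE 0.05, unadjusted p = 0.00625) and Adam17, a sheddase gene whose product cleaves p75, by -0.17 (SE 0.05, unadjusted p = 0.00749), with adjusted p-values of 0.255 and 0.263 in limma. After further quantile normalization the value of Plg was 0.10 (unadjusted p = 0.0647 in limma). Of the adaptors, Frs2, which docks on Trk and Ret kinases, differed by -0.12 (SE 0.04, unadjusted p = 0.0155) and Traf6, which binds p75, by -0.11 (SE 0.04, unadjusted p = 0.0125), neither past the adjusted threshold in limma. Ripk2, listed with the adaptors, differed by -0.10 (SE 0.04, unadjusted p = 0.0384, adjusted p = 0.356 in limma). Its change in 30C against 1C was -0.20 (SE 0.06, unadjusted p = 0.00589, adjusted p = 0.748 in limma).

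**Figure D4:**
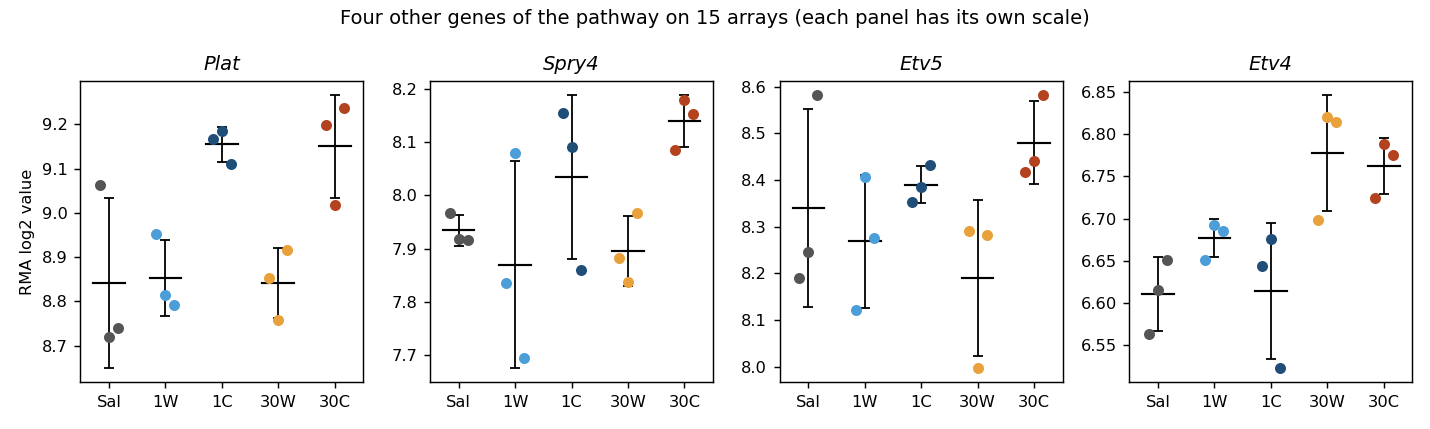
RMA log2 value (y axis, a separate scale per gene) of Plat, Spry4, Etv5 and Etv4 in the 5 groups (x axis); points are single arrays, and bars give the mean ± SD of 3 arrays. Plat was above 9.0 on all 6 arrays after the extinction test and below 8.96 on all 6 cocaine arrays without it.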

How the data were processed

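The deposited table holds log2 values, which the authors computed with RMA, per the submitters' processing notes (version not given in the sources used here). This method subtracts background, equalises array distributions and summarises probe sets. Of 28826 probe sets, 15209 had 1 platform symbol, giving 14497 genes. A gene with several probe sets was taken at the one of highest mean, and 11778 genes passed the filter. A linear model with the 5 groups, over 15 arrays, was fitted in limma 3.58.1 (R 4.3.3) with moderated variances and tested on simulated data. P-values were two-sided, adjusted by Benjamini-Hochberg over all genes tested. A score is the mean deviation of a marker list from its means over the arrays; it entered as a covariate beside the groups. The members and lists were chosen with earlier results of these data known. Named are the members and the 3 genes most alike to each by Pearson r. Also named are pathway genes at an unadjusted p under 0.05 in a comparison of 2 groups (at most 10 a comparison), besides Bdnf and the list of downstream target and feedback genes. Of those pathway genes, Gab2, Gfra4, Ncam1, Dok4 and Mmp9 are named only here, without their values. Vgf and Spred1 are given only for the averaged extinction test.

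Replicate numbers are shared across groups. Same-numbered arrays of 30W and 30C had correlated deviations from the group means (r from 0.10 to 0.16 over genes), while in the other 7 comparisons at least 1 pair was under 0.1. In 1C against Sal a same-numbered pair reached an r of 0.50. Any pairing comes from these values alone, not from the labels, and these correlations do not establish it.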

Additional observations from a re-analysis of the deposited data

How the results depend on the processing

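Over the alternatives run, 0 of 8 members passed the adjusted threshold in any comparison. Of 96 member changes, 51 changed sign under at least 1 alternative, in 131 of 2644 values, and no change with an unadjusted p under 0.05 did. The 3 arrays a group limit the precision. With the replicate block, the change of Ngfr in 30C against 30W was 0.55 (adjusted p = 0.999 in limma) and that of Ntf4 at 30 days 0.18 (adjusted p = 0.259), and the block changed no call of a group comparison; the slope of Ntrk3 on the cholinergic score was 0.35 with it (adjusted p = 0.0307) and that of Ngfr 0.75 (adjusted p = 0.0988).

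Counts of genes past the threshold in limma moved as follows, and the cause was not tested. For 30 days against 1 day, averaged over the test (1 gene), the count was 2 with the 50th percentile as filter or median centring, 4 after further quantile normalization, 5 at a threshold of 0.10, 6 with array weights, and 0 with only the arrays compared or with the cholinergic or medium spiny neuron score as a covariate. For 30C against 30W (0 genes), it was 1 with array weights, the cortical covariate or an adjusted p under 0.10, and 8 with the cholinergic covariate. For 30W against 1W it was 3 with array weights. For 30C against 1C it was 2 with array weights and 1 with the cortical or cholinergic covariate. For the averaged extinction test it was 2 with the cortical and 3 with the cholinergic covariate, and for 30C against Sal 5 with the cholinergic covariate. Array weights gave 328 genes following the cortical score (629 without weights), 388 following the medium spiny neuron score (911) and 135 following the cholinergic score (323), and the last count was 650 at an adjusted p under 0.10.

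Leaving out 1 array at a time gave 0 to 3 genes for 30 days against 1 day (0 without Sal replicate 2, 1W replicate 1 or 2, 30W replicate 2 or 3, 1C replicate 1 or 3, or 30C replicate 2 or 3, 2 without 30W replicate 1 or 1C replicate 2, and 3 without 30C replicate 1), 0 to 2 for 30C against 1C and for the 5-group test, and 0 to 1 for 30C against 30W, 30W against 1W, 1C against Sal and 1C against 1W. It gave 344 to 703 genes for the cortical score (344 without 30C replicate 1, 351 without Sal replicate 3, 357 without 30C replicate 3), 232 to 1129 for the medium spiny neuron score (232 without 30C replicate 1, 427 without 1W replicate 1, 527 without 1W replicate 3, 582 without 30C replicate 3) and 6 to 683 for the cholinergic score (6 without Sal replicate 1, 30 without Sal replicate 3, 86 without 30C replicate 3, 161 without 1C replicate 1, 683 without 1W replicate 1). The covariates of the cholinergic and medium spiny neuron scores, and all alternatives for slopes, were chosen after seeing the data. The 5-group test was not run with trended variance, array weights, covariates or the block.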
